A study of Mus musculus with 6 samples.

Results

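Jun is a subunit of AP-1, a transcription factor built from pairs of Jun, Fos and related proteins, and its peaks were examined here at 4 genes of the TGF-beta pathway: Smad3, Smad7, Tgfbr2 and Tgfb2. The members were the peaks of the deposited Jun list whose midpoint lay in 1 of 4 windows on the mouse build mm9. The Smad3 window spanned 180 kb (chr9:63460001-63640000), that of Smad7 120 kb (chr18:75480001-75600000), that of Tgfbr2 160 kb (chr9:115960001-116120000) and that of Tgfb2 160 kb (chr1:188410001-188570000). They held 136 of the 99162 peaks in the list, or 0.137%, of which 54 lay at Tgfb2, 37 at Smad3, 31 at Smad7 and 14 at Tgfbr2. Below, the peaks of a gene are those in its window. Whether a window covers the whole gene on mm9, or also holds part of a neighbouring gene, could not be checked. The list was taken to be that of the 1 Jun ChIP-seq library of the series, prepared from rib chondrocytes of untreated wild-type ICR mice at postnatal day 1, beside 1 library of input DNA from the same kind of cells. The study asked how AP-1 acts with Sox9 while chondrocytes become hypertrophic. Its 4 RNA-seq libraries, from sorted rib chondrocytes of Swiss Webster Col10a1mCherry mice at E18.5 and postnatal days 1 and 3, were not used here. Without them the cells could not be checked against chondrocyte markers. The labels do not say how many mice were pooled.

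TGF-beta ligands are secreted in a latent form and, once released, bind a receptor pair of which the type II subunit phosphorylates the type I subunit. The activated type I receptor phosphorylates Smad2 and Smad3, which join Smad4, enter the nucleus and act on genes at short Smad-binding sequences, often beside sites of other factors such as AP-1. Smad7 is itself a target of the pathway and shuts it down at the receptor. In cartilage, TGF-beta signalling is known for holding chondrocytes back from hypertrophy, and loss of Smad3 in mice leads to early hypertrophy and joint degeneration.

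Each row of the list holds a chromosome with 2 coordinates and no score, and no sequence of mm9 was used, so the peaks themselves are shown by position. RefSeq promoter sequences, from 250 bases before to 50 bases after a gene's start, come from the later build GRCm38.p6 and are printed as the one stretch of regulatory DNA of these genes that could be read. Their coordinates cannot be set against the mm9 peaks, and whether a Jun peak lies on them was not determined. All 3 lie on the minus strand and are written 5′ to 3′, with the Smad box CAGAC in capitals. The Smad3 promoter is at chr9:63757945-63758244, that of Tgfbr2 at chr9:116175314-116175613 and that of Tgfb2 at chr1:186705940-186706239 of GRCm38.p6.
Tgfb2: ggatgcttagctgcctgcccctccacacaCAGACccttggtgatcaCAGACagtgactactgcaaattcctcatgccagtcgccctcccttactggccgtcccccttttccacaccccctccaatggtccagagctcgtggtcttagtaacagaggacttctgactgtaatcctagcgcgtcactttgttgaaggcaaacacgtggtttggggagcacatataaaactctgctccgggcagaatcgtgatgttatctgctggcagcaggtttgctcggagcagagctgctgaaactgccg
Tgfbr2: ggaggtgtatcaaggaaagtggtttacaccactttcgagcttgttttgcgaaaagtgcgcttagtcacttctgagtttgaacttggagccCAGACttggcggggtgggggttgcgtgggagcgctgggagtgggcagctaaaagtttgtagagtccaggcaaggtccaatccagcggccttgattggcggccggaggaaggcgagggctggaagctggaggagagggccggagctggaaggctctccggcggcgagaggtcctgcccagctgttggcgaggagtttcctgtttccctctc
Smad3: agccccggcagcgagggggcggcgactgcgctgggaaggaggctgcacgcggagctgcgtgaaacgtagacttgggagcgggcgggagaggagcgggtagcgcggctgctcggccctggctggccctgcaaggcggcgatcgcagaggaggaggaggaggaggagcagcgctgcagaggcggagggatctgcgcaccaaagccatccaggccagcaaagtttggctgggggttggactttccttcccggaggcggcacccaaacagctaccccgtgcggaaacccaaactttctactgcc

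The Smad box was searched on both strands and found at 2 places in the Tgfb2 promoter, beginning at positions -221 and -204 relative to the gene's start, at 1 place in the Tgfbr2 promoter, at -160, and nowhere in the Smad3 promoter. Of the 32851 promoters in the table, 49.6% held it, so it is a common match. The AP-1 motif TGANTCA (7.81% of all promoters), the related cAMP response element TGACGTCA (1.79%) and the Smad-binding palindrome GTCTAGAC (0.213%) were searched in the same way, and none of these letters stood in the 3 windows of promoter sequence. TGACGTCA does not contain TGANTCA, and the palindrome does not contain the Smad box. Of a list of 22 pathway genes, 13 were matched in the table. No promoter of Smad7 is shown, and no result is given for Smad7 on its own. These 13 genes had 19 promoters, as a gene with several starts has several. Of the 19, 1 held TGANTCA (5.26%), that of Ltbp3, which binds the latent ligand. TGACGTCA was found in 1, of Ltbp1 from the same family, and GTCTAGAC in 1, of the inhibitory Smad6. CAGAC was found in 12 of the 19 (63.2%). The promoters of Smad3, Tgfbr2 and Tgfb2 had a G and C content of 67.7%, 59.0% and 54.3%, against a median of 52.7% over the table.

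Jun peaks were dense around the ligand and both Smad genes, and less so around the receptor. Tgfb2 had 54 peaks, a density of 338 per Mb (exact Poisson 95% interval 254 to 440). Smad7 had 258 per Mb (176 to 367) and Smad3 206 per Mb (145 to 283). Tgfbr2 had 87.5 per Mb (47.8 to 147). The intervals of Tgfb2, Smad7 and Smad3 overlapped each other, so their order is not set by these counts. That of Tgfbr2 lay wholly below those of Smad7 and Tgfb2 and overlapped that of Smad3. The intervals cover counting error alone, and they are too narrow because peaks lie in groups. No test between the windows was made, since there is 1 library and no replicate.

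Each window was set beside all abutting stretches of its length along the 19 autosomes. At least 54 peaks, as at Tgfb2, were found in 25 of 14991 stretches of 160 kb (0.167%). At least 31 peaks, as at Smad7, were found in 156 of 19994 stretches of 120 kb (0.78%), and at least 37, as at Smad3, in 196 of 13325 stretches of 180 kb (1.47%). At least 14 peaks, as at Tgfbr2, were found in 2460 of 14991 stretches (16.4%). The median stretch held 3 peaks at 160 kb, 2 at 120 kb and 4 at 180 kb, and the fullest stretch of 160 kb held 140. The Tgfbr2 window thus lay in the upper part of an ordinary range, whereas the other windows stood among the fullest autosomal stretches. The stretches were laid without regard to genes, and 26.1% (180 kb) to 31.9% (120 kb) of them had no peak at all. How stretches centred on other genes rank was not tested.

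**Figure D1:**
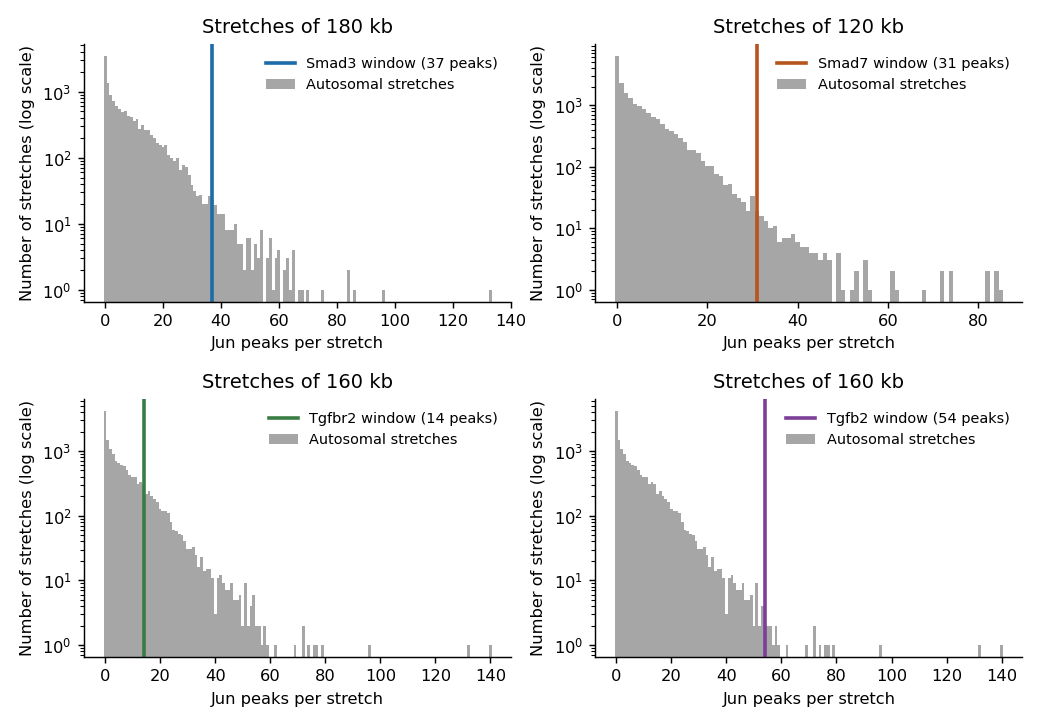
Number of Jun peaks (x axis) in all autosomal stretches of the same length as each window, with the number of stretches on a log scale (y axis, grey bars) and the window's own count as a coloured line. The Tgfb2 line at 54 peaks has 25 stretches at or beyond it, and the Tgfbr2 line at 14 has 2460.

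Against their own chromosomes, whose mean density was taken between the first and last peak, the Tgfb2 window was 9.35-fold denser (chromosome 1, 36.1 peaks per Mb), the Smad7 window 6.44-fold denser (40.1 per Mb), the Smad3 window 4.50-fold denser and the Tgfbr2 window 1.92-fold denser (both chromosome 9, 45.7 per Mb). Each window was also denser than the stretch of the same length on either side of it. At Tgfb2 the flank at lower coordinates, toward Lyplal1, held 28 peaks (175 per Mb, 95% Poisson interval 116 to 253), while the flank at higher coordinates, toward Rrp15, held 3 (18.8 per Mb, 3.87 to 54.8). The intervals of the flanks were thus apart from each other, and that of the window lay above both, though only just above that of the fuller flank. At Smad3 the flank toward Aagab, a gene of vesicle adaptor assembly, held 10 peaks (55.6 per Mb, 26.6 to 102) and the flank toward Smad6 held 23 (128 per Mb, 81.0 to 192). The window's interval lay above that of the first and overlapped that of the second. The names of neighbouring genes come from RefSeq on GRCm38, so the side of a neighbour is its side on that build. Gene ends on mm9 were not used, and how far each gene reaches into a flank or a window is not stated.

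At Smad7 the flanks held 13 peaks on the side of Dym (108 per Mb, 57.7 to 185) and 18 on the side of Ctif (150 per Mb, 88.9 to 237). Both intervals overlapped that of the window. At Tgfbr2 the flanks held 3 peaks on the side of Gadl1 (18.8 per Mb, 3.87 to 54.8) and 9 on the side of Rbms3 (56.3 per Mb, 25.7 to 107), and again both overlapped that of the window. Taken as they stand, the interval of the window was clear of both flanks at Tgfb2, of 1 flank at Smad3 and of neither at Smad7 and Tgfbr2. At Tgfb2 the lower bound of the window was 253.5 per Mb and the upper bound of the fuller flank 252.9 per Mb. Because peaks lie in groups the intervals are too narrow, so they do not establish that the window and this flank differ.

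**Figure D2:**
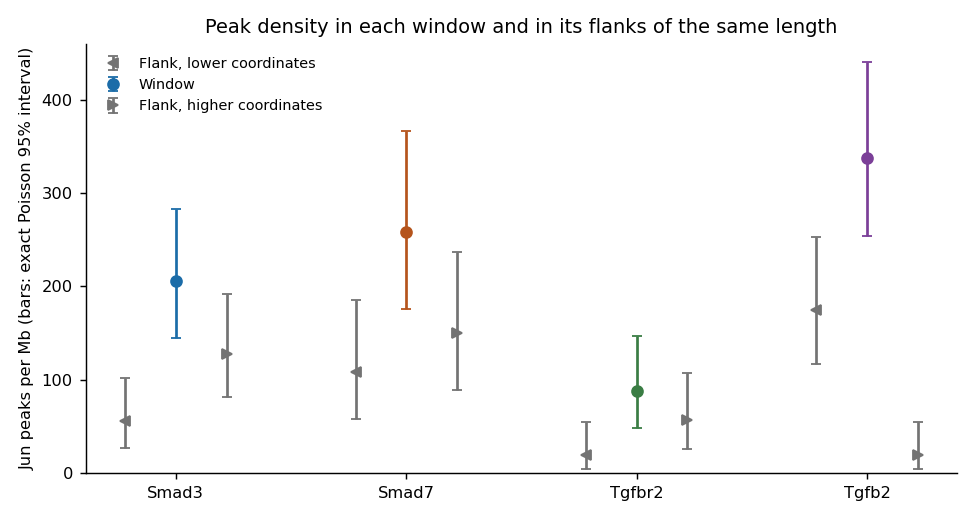
Jun peaks per Mb (y axis) in each window (circles) and in the flanks of the same length at lower and higher coordinates (triangles), with exact Poisson 95% intervals as bars. The Tgfb2 window, at 338 per Mb, lies above flanks of 175 and 18.8 per Mb, and the bars of the Smad7 and Tgfbr2 windows overlap those of their flanks.

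Tgfb2 encodes TGF-beta 2, one of the TGF-beta ligands. Its 54 peaks (RefSeq gene ID 21808) covered 8944 bp, or 5.59% of the window, and lay within 112 kb, with no peak in the 24.0 kb at either end of the window. Chained where centres lay within 10 kb of each other, they formed 3 groups. The largest, chr1:188491231-188546010, held 36 peaks in 54.8 kb, with a median width of 133.5 bp. The next, chr1:188433960-188464650, held 15 peaks in 30.7 kb, and chr1:188475092-188477360 held 3 in 2.27 kb. Counted in fixed 10 kb bins from the start of the window, the fullest bin, chr1:188500001-188510000, held 11 peaks and was part of the largest group. At any start the fullest 10 kb held 12 peaks, as in chr1:188498240-188507372.

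Peaks at Tgfb2 also stood close together on a finer scale. The median distance between neighbouring centres was 1092 bp, with the central 50% between 646.5 and 2172 bp, and 24 of 53 distances were at most 1 kb. The closest pair, chr1:188506239-188506317 and chr1:188506438-188506613, had centres 247.5 bp apart. One pair of peaks overlapped, chr1:188455431-188455843 and chr1:188455717-188456120, by 127 bp, and no pair overlapped in the other windows. With peaks within 1000 bp merged, the 54 peaks became 26 regions, of which 11 held more than 1 peak. The regions chr1:188498240-188500766, chr1:188514350-188516807 and chr1:188538948-188541810 held 5 peaks each in 2.53, 2.46 and 2.86 kb. The longest stretch without a peak centre, 14154 bp, lay between chr1:188477025-188477360 and chr1:188491231-188491461, where it separates the largest group from the rest.

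Tgfbr2 encodes the type II receptor, which binds the ligand and starts the phosphorylation cascade. Its 14 peaks (gene ID 21813) covered 1986 bp, 1.24% of the window, and were strewn in 6 small groups over 121 kb. The largest group, chr9:116062214-116072664, held 5 peaks in 10.5 kb. The others were 3 peaks at chr9:116000268-116010201, pairs at chr9:115984894-115985550 and chr9:116031058-116034487, and single peaks at chr9:115963405-115963586 and chr9:116084358-116084457. The last 35.6 kb of the window had no peak centre. The median distance between neighbours was 6565 bp, and the longest, 27823 bp, lay between chr9:116034405-116034487 and chr9:116062214-116062323. Close pairs were nevertheless present: chr9:116072346-116072493 and chr9:116072545-116072664 had centres 185 bp apart, the shortest distance in any of the 4 windows. Merging gave 11 regions, of which 3 held 2 peaks.

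Smad3 encodes the signal-carrying Smad that binds DNA. Its 37 peaks (gene ID 17127) covered 4575 bp, 2.54% of the window, with a longer median distance between neighbours than at Tgfb2 and Smad7. They lay in 5 groups over 167 kb. The largest, chr9:63549059-63605903, held 21 peaks in 56.8 kb. Next came chr9:63505848-63535378 with 8 peaks in 29.5 kb, chr9:63490800-63493200 with 4, chr9:63621047-63628533 with 3, and the single peak chr9:63461056-63461131. Counted in fixed 10 kb bins from the start of the window, the fullest bin, chr9:63590001-63600000, held 5 peaks, and no 10 kb at any start held more than 6 peak centres. The median distance between neighbours was 2383 bp (central 50% from 1241 to 5661 bp), and 7 of 36 distances were at most 1 kb. The closest pair was chr9:63549059-63549193 and chr9:63549250-63549570, 284 bp from centre to centre, and the longest distance, 29755 bp, followed the first peak of the window.

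Smad7 encodes the inhibitory Smad. Its 31 peaks (gene ID 17131) covered 4383 bp, 3.65% of the window, and 29 of them formed a single group of 67.9 kb, chr18:75502222-75570090. The other 2, chr18:75584353-75584508 and chr18:75584661-75584684, were the closest pair of the window, with centres 242 bp apart. Within the group, 9 consecutive peaks lay so near each other that they merged into 1 region of 5864 bp, chr18:75526420-75532283, the most peaks in any merged region of the 4 windows. It contained the 2 widest peaks at Smad7. A further 4 peaks merged at chr18:75556525-75558182, in 1.66 kb. The median distance between neighbours was 1253 bp (central 50% from 663 to 4236 bp). Of the fixed 10 kb bins, chr18:75530001-75540000 and chr18:75550001-75560000 were the fullest, with 6 peaks each. Their edges divide the merged region, and at any start the fullest 10 kb held 10 peaks, chr18:75526420-75535410. The first 22.3 kb and the last 15.3 kb of the window had no peak centre.

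**Figure D3:**
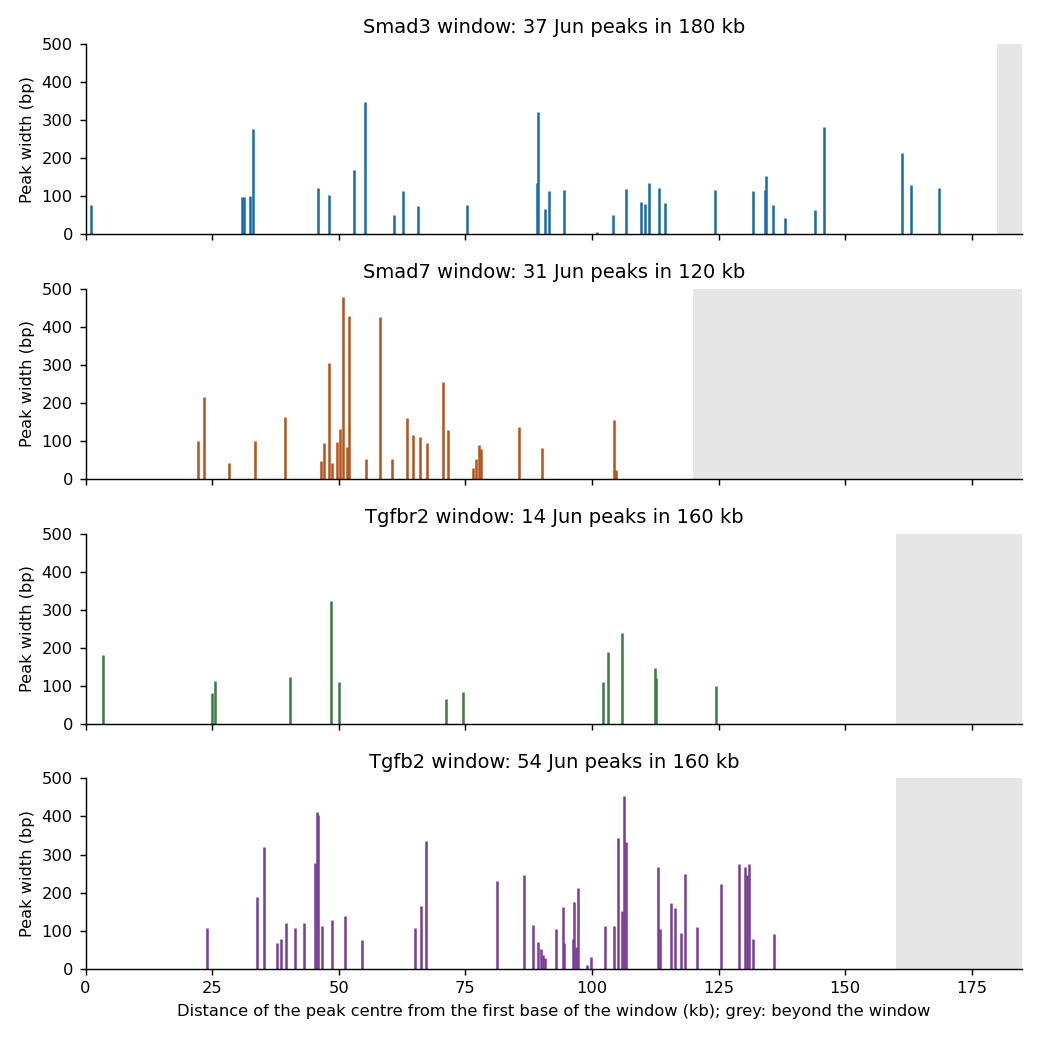
Every Jun peak of the 4 windows, placed by the distance of its centre from the first base of its window in kb (x axis), with its width in bp as the height of the line (y axis). The 9 peaks of the merged region at Smad7 stand together near 50 kb, the Smad3 peaks are spread over the window, and the 36 peaks of the largest Tgfb2 group stand from 81.3 to 136 kb.

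Merging close neighbours changed the order of Tgfb2, Smad7 and Smad3 by density, an order that the peak counts did not set. Tgfbr2 stayed last. Merging reduced Tgfb2 from 54 peaks to 26 regions (2.08 peaks per region), Smad7 from 31 to 17 (1.82), Tgfbr2 from 14 to 11 (1.27) and Smad3 from 37 to 30 (1.23). Counted as regions, Smad3 had 167 per Mb, Tgfb2 163, Smad7 142 and Tgfbr2 68.8. Smad3, with fewer peaks per Mb than Tgfb2 and Smad7, thus had slightly more regions per Mb than either. No intervals were computed for the region densities, so their order is not set either. At Smad3 13 of the 37 peaks shared a region with another peak, beside 39 of 54 at Tgfb2, 19 of 31 at Smad7 and 6 of 14 at Tgfbr2. The share over all peaks of the list was not computed for this count, so no window can be called high or low by it. The 1.23 peaks per region at Smad3 were set beside those of stretches with as many peaks or more. Smad3 thus stood at the lower end of their peak counts, and no comparison at an equal count was made. All 196 autosomal stretches of 180 kb with at least 37 peaks had more peaks per region, from 1.25 upward, with a median of 1.73. By the same measure Tgfb2 was ordinary (median 2.26 in its 25 stretches, 15 of them at or above it), as was Smad7 (median 1.83 in its 156 stretches, 83 at or above). For Tgfbr2 1829 of 2460 stretches were at or above it. These are descriptions of 1 list and not tests.

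**Figure D4:**
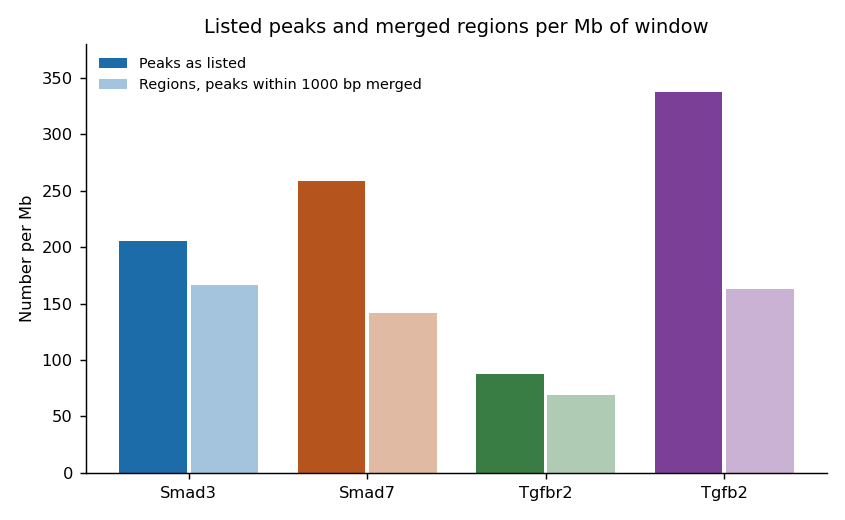
Number per Mb of window (y axis) of Jun peaks as listed (full colour) and of regions after peaks within 1000 bp were merged (pale). Tgfb2 drops from 338 to 163 per Mb and Smad7 from 258 to 142, while Smad3 drops from 206 to 167.

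Another count of close neighbours, the peaks whose nearest centre in the list lay within 1 kb, gave 36 of 54 at Tgfb2 (66.7%, exact Clopper-Pearson 95% interval 52.5 to 78.9%), 17 of 31 at Smad7 (54.8%), 6 of 14 at Tgfbr2 (42.9%) and 13 of 37 at Smad3 (35.1%), beside 39.1% of all peaks. Close neighbours go with density: among the stretches at least as full as the Smad3 window the median share was 59.8%, and 194 of 196 had a share at or above that of Smad3. For Tgfb2 the median of such stretches was 73.0%, and for Smad7 63.8%.

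Peak widths, which the choice of windows did not use, had like medians in the 4 windows, but wide peaks were more frequent at Tgfb2. The median width was 114 bp at Smad3, 99 bp at Smad7 and 116 bp at Tgfbr2, and 124 bp at Tgfb2, beside 114 bp over all peaks. The exact 95% intervals of these medians all overlapped, from 108 to 176 bp at Tgfb2 and from 84 to 122 bp at Smad3, for example. The upper part of the distribution differed more. Peaks of at least 200 bp made up 18 of 54 at Tgfb2 (33.3%, 95% interval by the same method 21.1 to 47.5%), beside 14.0% of all peaks. The share was 6 of 31 at Smad7 (19.4%, 7.45 to 37.5%), 2 of 14 at Tgfbr2 (14.3%, 1.78 to 42.8%) and 5 of 37 at Smad3 (13.5%, 4.54 to 28.8%), whose intervals all include 14.0%. These intervals treat peaks as independent, which neighbours in 1 group are not. Smad7 and Tgfb2 had 3 peaks each of at least 400 bp, and Smad3 and Tgfbr2 had 0 of 37 and 0 of 14, which allow shares of up to 8.11% and 21.4% (the limit of a count of 0 taken as 3 counts of the total), beside 3.1% of all peaks. Peaks under 50 bp were 5 of 31 at Smad7 (16.1%, 5.45 to 33.7%), 4 of 54 at Tgfb2, 2 of 37 at Smad3 and 0 of 14 at Tgfbr2, which allows a share of up to 21.4% by the same limit, beside 6.3% of all peaks. The Smad7 shares of peaks of at least 400 bp (9.68%, Clopper-Pearson 95% interval 2.04 to 25.8%) and under 50 bp had intervals that include the shares of all peaks.

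The widest Smad7 peaks were chr18:75530642-75531119 (478 bp), chr18:75531856-75532283 (428 bp) and chr18:75537906-75538330 (425 bp). Those of Tgfb2 were chr1:188516014-188516468 (455 bp) and the overlapping peaks chr1:188455431-188455843 (413 bp) and chr1:188455717-188456120 (404 bp). The widest Smad3 peaks measured 347 bp (chr9:63515042-63515388), 321 bp (chr9:63549250-63549570) and 281 bp (chr9:63605623-63605903). At Tgfbr2 they measured 324 bp (chr9:116008401-116008724), 238 bp (chr9:116065736-116065973) and 188 bp (chr9:116063031-116063218). Of the 6 Smad7 peaks of at least 200 bp, 3 lay in the merged region of 9 peaks and the others outside it. The narrowest were 6 bp at Smad3 (chr9:63560998-63561003) and 10 bp at Tgfb2 (chr1:188508967-188508976), shorter than a sheared fragment of 100 to 600 bp, and no source used here says how such short intervals arose.

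The share of wide peaks at Tgfb2 stood in the upper part of the range among stretches at least as full. Of the 25 stretches of 160 kb with at least 54 peaks, 2 had a share of wide peaks at or above 33.3%. The median of the 25 was 27.3% and their upper quartile 31.9%. The interval of the Tgfb2 share, 21.1 to 47.5%, includes that median. At Smad7 88 of 156 such stretches were at or above its share, and at Smad3 155 of 196.

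**Figure D5:**
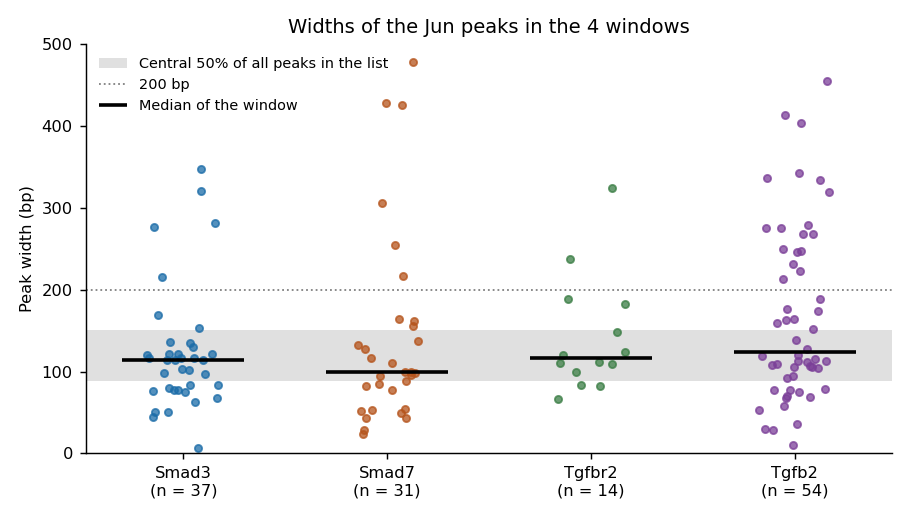
Width in bp (y axis) of each Jun peak in the 4 windows (points, spread sideways for visibility), with the median of the window (black line), the central 50% of all peaks in the list, 88 to 151 bp (grey band), and 200 bp (dotted line). Tgfb2 has 18 of 54 points at or above 200 bp and Smad3 5 of 37.

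The rows of the list follow no genomic order, and no label explains their order. Peaks of the Tgfb2 window came late in it: 17 of 54 were in the first 50% of the rows (31.5%, exact Clopper-Pearson 95% interval 19.5 to 45.6%), and the median place was at 64.3% of the list. At Smad7 14 of 31 were in the first 50% (median place 61.7%), at Tgfbr2 7 of 14 (53.7%) and at Smad3 21 of 37 (44.1%). Among the 25 stretches at least as full, the share in the first 50% of the rows was at or above the 31.5% of Tgfb2 in 20. Every window had peaks in the first 10% of the rows, where by construction 10% of all peaks lie. These were 6 at Tgfb2 (11.1%), 5 at Smad3 (13.5%), 4 at Smad7 (12.9%) and 3 at Tgfbr2 (21.4%).

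The earliest Smad7 peak was chr18:75502222-75502320 at row 830, followed by chr18:75535359-75535410 at row 2510 and chr18:75551455-75551582 at row 8011. At Smad3 the earliest were chr9:63566666-63566785 (row 1034), chr9:63573203-63573324 (row 5428) and chr9:63594025-63594140 (row 5809), all in the largest group. At Tgfbr2 they were chr9:116084358-116084457 (row 1177), the last peak of the window, chr9:116062214-116062323 (row 4625) and chr9:115963405-115963586 (row 5966), the first. At Tgfb2 they were chr1:188500235-188500270 (row 3091), chr1:188433960-188434065 (row 3223) and chr1:188499939-188499991 (row 3628). None of these 12 peaks, all at or before row 8011, reached 200 bp. The share of such peaks was 9.10% over the first 50% of the list and was not computed for the earliest rows alone. At a share near that, 12 peaks would be too few to show that the earliest rows lack wide peaks.

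Wide peaks were mostly late rows. In the first 50% of the list 2 of 17 Tgfb2 peaks reached 200 bp (11.8%), beside 9.10% of all peaks there. In the last 50% it was 16 of 37 (43.2%), beside 19.0% of all peaks. Over the 4 windows together 5 of 59 early peaks (8.47%) and 26 of 77 late peaks (33.8%) reached 200 bp. Of the wide peaks at Tgfb2, 16 thus stood in the later rows and 2 in the early rows. No interval was computed for either part of the list. With 2 wide peaks, the early rows cannot show whether they shared the higher value.

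The windows end at fixed positions, so the peaks at their edges were listed. At Smad3 the first peak lay 1.09 kb inside the window and the next one outside, chr9:63458948-63459073, 0.991 kb beyond its start. At its other end the distances were 11.5 kb inside and 1.68 kb outside (chr9:63641631-63641725). At Smad7 the nearest outside peaks were chr18:75479191-75479263, 0.774 kb away, and chr18:75606465-75606570, 6.52 kb away. At Tgfb2 they were chr1:188405740-188405851 and chr1:188573178-188573313, 4.21 and 3.25 kb away, and at Tgfbr2 chr9:115886872-115886995 and chr9:116128180-116128307, 73.1 and 8.24 kb away. The Tgfbr2 peaks were thus bordered toward lower coordinates by 76.6 kb without a peak centre. At the same edge of Smad3 the peaks on either side were 2.08 kb apart. There, 29755 bp without a peak centre followed the first peak inside the window. Widening each window by 20 kb at both ends added 3 peaks at Tgfb2, to 57, 8 at Smad3, to 45, 8 at Smad7, to 39, and 4 at Tgfbr2, to 18.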

How the data were processed

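The Jun peak list that the authors deposited was read as 3 columns, a chromosome with the 2 ends of a peak, on mm9, the build named by the submitters' processing notes; it has no header and no score. No source used here gives the aligner, the peak caller or the use of the input, and the read depth is unknown. The name of the list carries a mark of a false discovery rate (FDR). No source used here says what threshold that mark stands for. Per the labels' protocols, cells were fixed in 1% formaldehyde and chromatin was sheared to 100 to 600 bp. The list names no sample and was assigned to the 1 Jun library. Positions are counted from 1. Densities have exact Poisson 95% intervals, medians exact binomial ones, shares exact Clopper-Pearson ones, and a count of 0 is limited at 3 counts; all cover counting error only. Stretches abut from the first peak of each autosome, are counted by peak midpoint and may overlap the windows. Regions join peaks at most 1000 bp apart. The named peaks are, in each window, the 3 widest, the 3 earliest rows, the closest pair, the fullest group and 10 kb, the longest gap and the edges; the narrowest peaks and the fullest 10 kb at any start were added after their values were seen. The members and lists were chosen with earlier results of these data known. Counting was tested on simulated lists with planted peaks. Software was Python 3.11.15, pandas 2.3.3, numpy 2.4.6 and scipy 1.17.1. No tests across samples were possible with 1 library.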

Additional observations from a re-analysis of the deposited data

How the results depend on the processing

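Of 72 alternative values, 48 stayed within the limits set for a change (1.5 times for a count, the 95% interval for a percentage or median) and 24 moved. Merging peaks within 1000 bp gave 17 regions at Smad7 and 26 at Tgfb2. The first 50% of the list held 21 peaks at Smad3, 14 at Smad7, 7 at Tgfbr2 and 17 at Tgfb2, and the last 50% held 16 at Smad3, 17 at Smad7 and 7 at Tgfbr2; fewer peaks enter by construction. The percentage of stretches at least as full as the window became 1.99 at Smad3, 1.15 at Smad7 and 22.7 at Tgfbr2 without empty stretches; 0.338 at Smad3, 1.65 at Smad7 and 0.554 at Tgfb2 with merged peaks; and 2.24 at Smad3, 17.8 at Tgfbr2 and 0.0828 at Tgfb2 on the gene's own chromosome. With merged peaks the Smad3 window thus ranked above those of Tgfb2 and Smad7. The fullest group held 8 peaks at Smad3, 18 at Smad7, 3 at Tgfbr2 and 21 at Tgfb2 when chained within 5 kb, and 36 at Smad3 within 20 kb. The fullest 10 kb at Smad7 held 10 peaks at any start, a setting chosen after seeing the data, against 6 in fixed bins. Other directions of change are also set by construction. Leaving out empty stretches can only raise the percentage, and merging joins peaks into fewer regions. A shorter chaining distance can only split groups and a longer one can only join them. The fullest 10 kb at any start cannot hold fewer peaks than the fullest fixed bin. For the remaining changes the cause was not tested. All 16 alternative median widths stayed within the interval of the median. No paired analysis was possible because there is 1 Jun library. Depth, the input library and replicates are unknown or were not used here, so a stretch without a peak cannot be taken as unbound, and the list order and the narrowest peaks cannot be interpreted.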

Other observations

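Peaks next to each other in the list are seldom next to each other on the genome. Of 99161 pairs of consecutive rows in the whole list, 361 (0.364%) had centres within 10 kb on the same chromosome. In the 4 windows 1 such pair occurred, at rows 95615 and 95616: the Tgfb2 peaks chr1:188515810-188515961 and chr1:188516014-188516468, the second of which is the widest peak of that window. They belong to the merged region chr1:188514350-188516807, whose other 3 peaks stand at rows 23135, 76002 and 94021.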
